A study of Mus musculus with 8 samples.

Results

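The genes described here encode the desmosome cadherins and the plaque proteins that tie them to keratin filaments. They are 10 genes of the 54838 in the count tables, chosen by name: the cadherins Dsg1a, Dsg2, Dsg3, Dsc1, Dsc2 and Dsc3, and the plaque proteins Dsp, Jup, Pkp1 and Pkp3. Each matched 1 row of the tables, and all 10 had enough counts to be tested among 17839 tested genes. RNA was sequenced from mouse epidermis, the outer epithelium of skin, freed with trypsin. The 4 groups of 2 biological replicates, 8 libraries in all, were Ovol1/2 iDKO at 25 DPI, control at 25 DPI, Ovol1/2 iDKO at 52 DPI and control at 52 DPI, with iDKO and DPI as the labels write them. Both Ovol genes code for zinc finger transcription factors found in epithelia. The sources used here give neither the alleles nor any inducing agent, nor the promoter that drives recombination, the strain or the age of the mice, nor whether animals were pooled.

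Desmosomes are junctions that hold neighbouring epithelial cells together and give epidermis its mechanical strength. Desmogleins (Dsg) and desmocollins (Dsc) are transmembrane cadherins that bind their partners across the gap between cells. Inside the cell their tails bind plakoglobin, encoded by Jup, and the plakophilins, encoded by the Pkp genes, which are armadillo repeat proteins. Plakoglobin and plakophilins bind desmoplakin, encoded by Dsp, which attaches the junction to keratin intermediate filaments. In epidermis Dsg3 and Dsc3 are known for the lower layers, Dsg1 and Dsc1 for the upper, differentiated layers, and Dsg2 and Dsc2 for low levels.

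Library totals were 9824307 to 50711381 counts. The libraries of replicate 1 had 49.76% to 49.97% of their strand-assigned counts on the second strand and those of replicate 2 had 95.4% to 95.7%, and the first principal component of all tested genes, with 56.5% of the variance, separated the replicate numbers. CPM, counts as parts of the library total, were scaled by library size and TMM. Against their labels, the iDKO libraries had higher CPM of Ovol1 and Ovol2 than the control library of the same time and replicate number in all 4 such pairs, by log2 ratios of 0.13 to 2.49 for Ovol1 and 0.06 to 0.84 for Ovol2, so the iDKO libraries are called here libraries labelled iDKO. Which exons were modified is not stated in the sources, and whole-gene counts cannot show an exon's loss. The Y-linked gene Ddx3y had 39.4 to 114 CPM at 25 DPI but 0 counts at 52 DPI, while Xist was at 131 to 1139 CPM at 52 DPI and 0.119 to 0.342 CPM at 25 DPI, so time and sex changed together. The basal keratins Krt5 and Krt14 that mark epidermis were at 5244 to 17750 and 6661 to 21610 CPM in all 8 libraries.

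Per length, the plaque proteins and Dsc3 were the most abundant of the 10 genes, and Dsg2, Dsc1 and Dsc2 the least. Levels of different genes were compared as CPM per kb of exon. Dsp had a median of 367 CPM per kb over the 8 libraries, Dsc3 318 and Pkp1 315, but these neighbours changed places often: Dsp was above Dsc3 in 5 of 8 libraries and Dsc3 above Pkp1 in 4 of 8. Jup followed with a median of 242, Pkp3 with 164 and Dsg1a with 151 CPM per kb. Jup was above Pkp3 in 5 libraries and Pkp3 above Dsg1a in 6, so that order too was not kept in all libraries. Below them the order was firmer. Dsg1a was above Dsg3 (83.8 CPM per kb) and Dsg3 above Dsg2 (17.7) in all 8 libraries, and Dsc1 (15.6) was above Dsc2 (3.23) in all 8, whereas Dsg2 was above Dsc1 in 5.

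**Figure D1:**
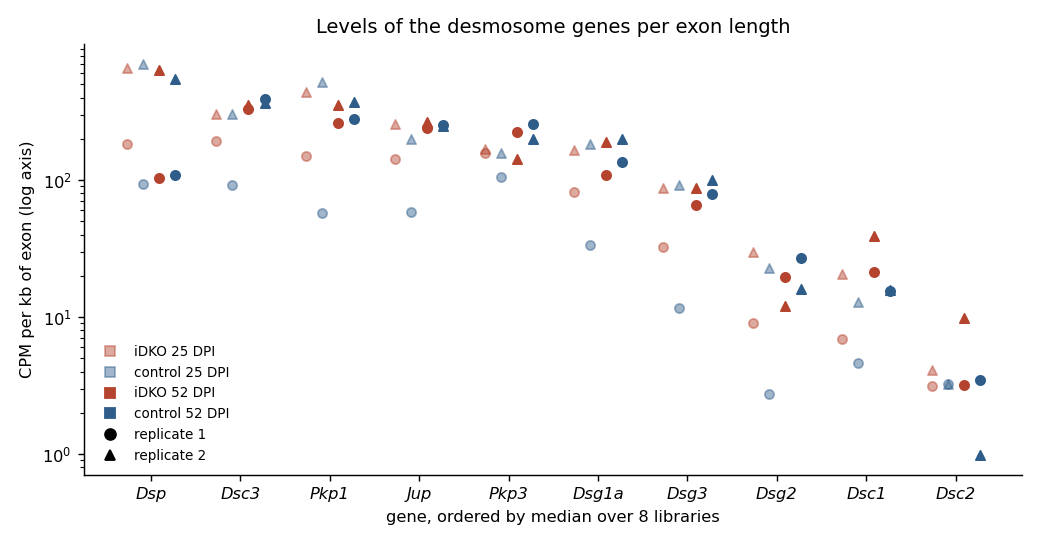
Level of each desmosome gene in the 8 libraries, as CPM per kb of exon on a log axis, with genes ordered by their median and libraries labelled iDKO left of control at each time. Dsp has the highest median, 367 CPM per kb, with triangles (replicate 2) far above circles (replicate 1) in every group, while Dsc2 has the lowest median, 3.23.

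Among the 6 cadherin genes described here, 1 gene of each kind held most of the RNA. Dsc3 made up 87.8% to 95.6% of the summed level per kb of Dsc1, Dsc2 and Dsc3 in the 8 libraries, and Dsg1a made up 55.9% to 70.1% of the summed level of Dsg1a, Dsg2 and Dsg3. The Dsg1a share is uncertain, because the sum leaves out other desmogleins, among them Dsg1b at 3.53 to 26.3 CPM per kb, and would be lower with them. Dsg1a also has the near-identical copies Dsg1b and Dsg1c, and reads they share could have been counted for either or for none. All 6 cadherin genes lie in 1 cluster on GRCm38 chromosome 18, with Dsc3, Dsc2 and Dsc1 on the minus strand and Dsg1a, Dsg3 and Dsg2 on the plus strand.

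Dsg1a (ENSMUSG00000069441, chromosome 18, 20310811 to 20343350) encodes a desmoglein of the upper layers. Its 25 DPI levels were 463 CPM in replicate 1 and 943 CPM in replicate 2 of libraries labelled iDKO, against 191 and 1037 CPM in control. Its 52 DPI levels were 615 and 1072 CPM in libraries labelled iDKO, against 773 and 1136 CPM in control. The groups overlapped at both times, and the control library of replicate 1 at 25 DPI was the lowest of all 8. The log2 fold change of libraries labelled iDKO over control was 0.20 at 25 DPI and -0.18 at 52 DPI, each with an SE of 0.86, by the quasi-likelihood test of edgeR, which called neither (adjusted p = 1.00 for both). Dsg3 (ENSMUSG00000056632, chromosome 18, 20510274 to 20547459), a desmoglein of the lower layers, had the same order of libraries at 25 DPI, with 225 and 615 CPM in those labelled iDKO and 80.6 and 645 CPM in control. At 52 DPI Dsg3 was at 458 and 615 CPM in libraries labelled iDKO and at 555 and 702 CPM in control, again with overlap. Its log2 fold changes of 0.21 at 25 DPI and -0.23 at 52 DPI, each with an SE of 0.95, were not called by edgeR (adjusted p = 1.00 for both). With the same block they were 0.70 (SE 0.39) and -0.23 (SE 0.37), again uncalled. Each library labelled iDKO at 52 DPI had less Dsg1a and less Dsg3 than the control library of its number.

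Dsg2 (ENSMUSG00000044393, chromosome 18, 20558074 to 20604521), the desmoglein of simple epithelia, hair follicles and heart, was at 75.05 and 247 CPM in libraries labelled iDKO at 25 DPI and at 22.75 and 189 CPM in control. At 52 DPI Dsg2 was at 161 and 98.8 CPM in libraries labelled iDKO and at 225 and 132 CPM in control. Within pairs, Dsg2 was thus higher in both 25 DPI libraries labelled iDKO, by ratios of 3.30 and 1.31, and lower in both of 52 DPI, by ratios of 0.718 and 0.748. The groups still overlapped at both times, because the replicates of a group lay further apart than the libraries of a pair. The log2 fold change was 0.61 at 25 DPI and -0.46 at 52 DPI, each with an SE of 0.99, by edgeR (adjusted p = 1.00 for both). The difference between these, -1.06 (SE 1.40), was not called either (adjusted p = 1.00 by edgeR). With the replicate number within time as a block it was -1.49 (SE 0.47), with an unadjusted p of 0.016 and an adjusted p of 0.793 by edgeR and 0.188 by DESeq2. Dsg2 overlaps the antisense gene Gm16090 (0 to 87 counts) by 330 exonic bases, and its counts on the second strand were 1.10 to 1.14 times those without regard to strand in the replicate 2 libraries.

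Dsc1 (ENSMUSG00000044322, chromosome 18, 20084184 to 20114871), the desmocollin of the upper layers, was the 1 gene of the 10 that was higher in the library labelled iDKO of all 4 pairs. Dsc1 had 35.1 and 104 CPM in libraries labelled iDKO at 25 DPI and 23.4 and 64.6 CPM in control. At 52 DPI Dsc1 was at 107 and 199 CPM in libraries labelled iDKO and at 78.1 and 79.3 CPM in control. The groups overlapped at 25 DPI and did not at 52 DPI, where both control libraries were close together. The pair ratios were 1.5 and 1.62 at 25 DPI and 1.37 and 2.5 at 52 DPI. Its fitted log2 fold change was 0.67 (SE 0.72) at 25 DPI and, at 52 DPI, 0.96 (SE 0.73), and edgeR called neither (adjusted p = 1.00 for both). Across both times it was 0.81 (SE 0.47), not called by edgeR (adjusted p = 1.00). With the block within time it was 0.76 (SE 0.18), with an unadjusted p of 0.00396 and an adjusted p of 0.931 by edgeR and 0.119 by DESeq2. Of all tested genes, 6.73% were higher in the library labelled iDKO of all 4 pairs and 7.06% lower in all 4, against 1 and 0 of the 10 desmosome genes. The 7 markers of spinous and granular cells, the layers where Dsc1 is known, summed to 10280 and 5445 CPM in libraries labelled iDKO at 25 DPI, against 10180 and 5736 CPM in control. At 52 DPI they summed to 3567 and 4794 CPM in libraries labelled iDKO, against 2921 and 8324 CPM in control. Singly, Sbsn, Flg and Ivl were higher in the library labelled iDKO of 3 pairs, Krt1, Krtdap and Lor of 2, and Krt10 of 1. The part of these cells in the Dsc1 values was not tested.

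Dsc3 (ENSMUSG00000059898, chromosome 18, 19960930 to 20002351), the desmocollin of the lower layers, was at 1044 and 1649 CPM in libraries labelled iDKO at 25 DPI and at 501 and 1640 CPM in control. At 52 DPI Dsc3 was at 1784 and 1905 CPM in libraries labelled iDKO and at 2101 and 1976 CPM in control. The 52 DPI groups did not overlap, with both control libraries higher, but the log2 fold change was -0.14 (SE 0.71), smaller than the error, and was not called (adjusted p = 1.00 by edgeR). That error draws on the spread within all groups, those of 25 DPI included. With the block within time the log2 fold change at 52 DPI was -0.14 (SE 0.33) by edgeR, again not called. At 25 DPI, where the groups overlapped, the log2 fold change without a block was 0.33 (SE 0.71). Set against each other, Dsc1 reached 3.36 and 6.33 counts per 100 Dsc3 counts in libraries labelled iDKO at 25 DPI, against 4.67 and 3.94 in control. At 52 DPI the ratio was 6 and 10.4 in libraries labelled iDKO, against 3.72 and 4.01 in control. The ratio thus overlapped between groups at 25 DPI, and at 52 DPI both libraries labelled iDKO lay above both controls. That separation follows from the higher Dsc1 and lower Dsc3 values of the same libraries and is no separate result.

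Dsc2 (ENSMUSG00000024331, chromosome 18, 20030633 to 20059554), the most widely expressed desmocollin, stood apart in 2 libraries. It was at 16.4 and 21.8 CPM in libraries labelled iDKO at 25 DPI and at 17 and 17.1 CPM in control. At 52 DPI Dsc2 was at 16.8 and 51.6 CPM in libraries labelled iDKO and at 18.4 and 5.17 CPM in control. The pair of replicate 2 at 52 DPI differed by a ratio of 9.98 and the other 3 pairs by ratios of 0.917 to 1.27, so the log2 fold change at 52 DPI, 1.53 (SE 0.755), rests on that pair (adjusted p = 1.00 by edgeR), and that at 25 DPI was 0.16 (SE 0.74). The library labelled iDKO with the high Dsc2 value also had the highest sum of hair follicle markers, 512 CPM against 116 to 348 CPM in the other 7 libraries. Of the 6 markers, Krt25 (59.4 CPM), Krt71 (81.3) and Krt28 (42.4), keratins of the inner root sheath, were highest there, and Sox9, Lhx2 and Krt31 were not. In that library Dsg4, the desmoglein of the hair shaft, was at 4.38 CPM, against 0 to 0.109 CPM elsewhere. The same library's sum of the 6 basal keratinocyte markers was the lowest, 25020 CPM against 35420 to 49420 CPM. The part of these cells in the Dsc2 value was not tested. In bulk epidermis, fewer cells of a type and less RNA per cell cannot be told apart.

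The plaque genes gave no called difference either. Dsp (ENSMUSG00000054889, GRCm38 chromosome 13, 38151294 to 38198577, plus strand), which encodes the link to keratin filaments, was at 1780 and 6402 CPM in libraries labelled iDKO at 25 DPI and at 899 and 6841 CPM in control. At 52 DPI Dsp was at 1007 and 6168 CPM in libraries labelled iDKO and at 1050 and 5309 CPM in control. In each group replicate 2 was 3.60 to 7.61 times replicate 1, whereas the 2 libraries of a pair were close in 3 of 4 pairs. Its log2 fold change was 0.08 (SE 1.33) at 25 DPI and, at 52 DPI, 0.17 (SE 1.34) (adjusted p = 1.00 for both by edgeR). These errors, from the fit without a block, were the widest of the 10 genes. With the block within time the log2 fold change of Dsp was 0.44 (SE 0.375) at 25 DPI and 0.08 (SE 0.37) at 52 DPI, uncalled by edgeR. Dsp overlaps Gm10129 on the opposite strand, which had 0 to 8 counts, and its second-strand counts were 1.01 to 1.03 times the unstranded ones in replicate 2.

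Jup (ENSMUSG00000001552, GRCm38 chromosome 11, 100368958 to 100397763, minus strand), which encodes plakoglobin, had 913 and 1645 CPM in libraries labelled iDKO at 25 DPI and 378 and 1277 CPM in control. At 52 DPI Jup was at 1533 and 1710 CPM in libraries labelled iDKO and at 1624 and 1584 CPM in control. The pair ratios were 2.41 and 1.29 at 25 DPI and 0.944 and 1.08 at 52 DPI, and the groups overlapped at both times. The log2 fold change of Jup at 25 DPI was 0.63 (SE 0.73) by edgeR (adjusted p = 1.00), and with the block within time 0.82 (SE 0.32, adjusted p = 0.731). At 52 DPI it was 0.02 (SE 0.73), a value whose sign turned under 4 other fits and without replicate 2 of the libraries labelled iDKO at 52 DPI. Dsp and Jup did not keep a fixed ratio to each other. There were 1.95 and 3.89 Dsp counts per Jup count in libraries labelled iDKO at 25 DPI, against 2.38 and 5.36 in control. At 52 DPI there were 0.657 and 3.61 in libraries labelled iDKO, against 0.647 and 3.35 in control, so the ratio went with the replicate number in every group and differed little within the 52 DPI pairs.

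The bases before the start of Jup and of Dsp are shown because these are the 2 of the 10 genes that the RefSeq promoter table holds, and because Jup stayed close to the mean of the desmosome genes over the libraries while Dsp departed from it. They are 250 bases each, from GRCm38.p6, written along the gene's own strand and ending just before the RefSeq start, at chr11:100397791-100398040 (minus strand) for Jup and chr13:38151044-38151293 (plus strand) for Dsp. Capitals mark GC boxes, whose letters are GGGCGG or, read on the opposite strand, CCGCCC, and boxes with the letters CCAAT.
Jup: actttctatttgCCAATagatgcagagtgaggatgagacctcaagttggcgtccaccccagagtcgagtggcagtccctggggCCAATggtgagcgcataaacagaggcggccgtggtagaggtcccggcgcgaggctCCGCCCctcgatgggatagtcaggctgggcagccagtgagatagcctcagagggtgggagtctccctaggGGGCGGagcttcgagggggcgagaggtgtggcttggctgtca
Dsp: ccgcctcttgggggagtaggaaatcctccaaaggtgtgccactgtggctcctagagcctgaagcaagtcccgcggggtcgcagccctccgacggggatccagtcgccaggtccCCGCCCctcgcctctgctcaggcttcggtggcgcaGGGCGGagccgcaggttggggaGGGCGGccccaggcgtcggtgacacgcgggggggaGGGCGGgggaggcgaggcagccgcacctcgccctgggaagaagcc
Both windows hold GGGCGG on at least 1 strand, as do 32.9% of 27025 promoter windows of the same length. Jup has 2 such matches and Dsp has 4. Jup also has 2 copies of CCAAT, a motif that 34.5% of the windows hold on either strand, and the Dsp window has none of these letters. The letters CACCTG, an E-box of the kind that Zeb and Snail factors bind (17.1% of windows), CCGTTA, the core bound by OVOL factors (2.17%), and AACCGGTT, bound by grainyhead-like factors (0.122%), are in neither window on either strand. A match is only a run of letters, and its absence concerns this window alone.

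Pkp1 (ENSMUSG00000026413, GRCm38 chromosome 1, 135871395 to 135919207, minus strand), the plakophilin of the upper layers, had levels of 753 and 2210 CPM in libraries labelled iDKO at 25 DPI and 290 and 2604 CPM in control. At 52 DPI Pkp1 was at 1308 and 1772 CPM in libraries labelled iDKO and at 1390 and 1851 CPM in control. The groups overlapped at both times, and the log2 fold changes were 0.03 (SE 1.02) and -0.07 (SE 1.02), uncalled by edgeR (adjusted p = 1.00 for both). With the block within time they were 0.57 (SE 0.42) at 25 DPI and -0.08 (SE 0.405) at 52 DPI, again uncalled. Gm36938, with 10 to 493 counts, lies within Pkp1 on the same strand and shares 0 exonic bases with it. Pkp3 (ENSMUSG00000054065, GRCm38 chromosome 7, 141078218 to 141090510, plus strand), the plakophilin found throughout the epidermal layers, had the smallest standard errors of the 10 genes at both times. It was at 573 and 612 CPM in libraries labelled iDKO at 25 DPI and at 381 and 571 CPM in control, so the groups did not overlap, by a margin of less than 2 CPM. At 52 DPI Pkp3 was at 814 and 518 CPM in libraries labelled iDKO and at 932 and 727 CPM in control, with overlap. Its log2 fold change was 0.32 at 25 DPI and -0.32 at 52 DPI, each with an SE of 0.56, and the difference, -0.63 (SE 0.79), was not called by edgeR (adjusted p = 1.00). With the block within time the log2 fold change of Pkp3 was 0.34 at 25 DPI and -0.34 at 52 DPI, each with an SE of 0.26, uncalled by edgeR.

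**Figure D2:**
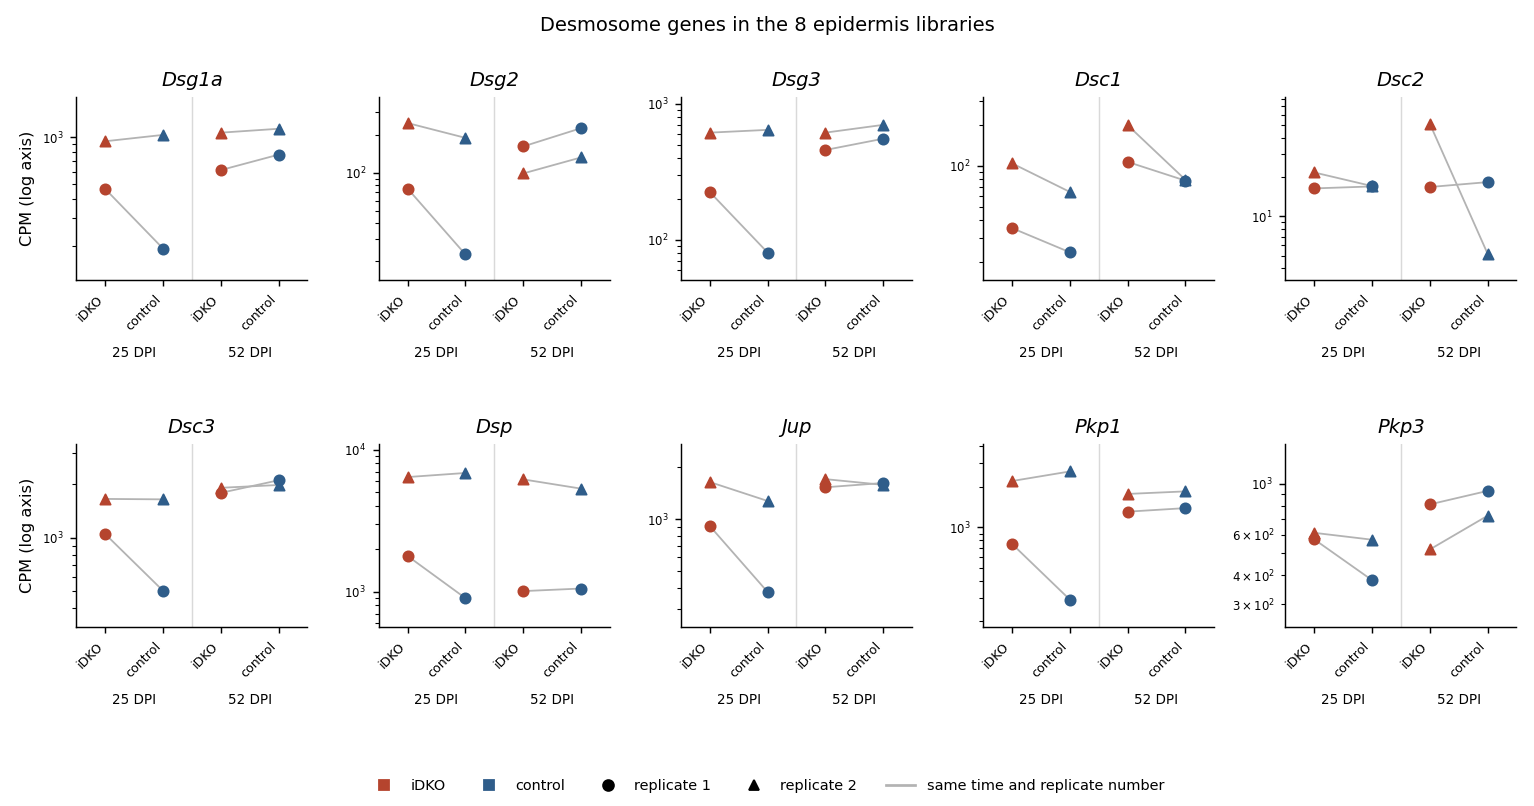
Level of each desmosome gene as CPM on a log axis, with libraries labelled iDKO left of control at 25 and at 52 DPI, circles for replicate 1, triangles for replicate 2 and grey lines joining libraries of the same time and number. The control circle at 25 DPI is low in all genes but Dsc2, and Dsc1 is higher in the library labelled iDKO of all 4 pairs.

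The comparison of libraries labelled iDKO with control asks how desmosome transcripts stand when both Ovol genes are targeted. At 25 DPI 0 of the 10 genes were called by edgeR, with 0% of all tested genes called, and all 10 log2 fold changes were above 0, with a median of 0.26 beside -0.03 over all genes. At 52 DPI 0 of 10 were called (0% of all genes), 4 were higher and 6 lower, with a median of -0.11 beside -0.01 over all genes. Across both times 0 were called (0%), with a median of 0.08 beside -0.02. The difference between the times gave 0 calls (0%) and a median of -0.41 beside 0.02. At an unadjusted p under 0.05 edgeR without a block found 0 of the 10 genes in each of these 4 comparisons, and 75, 143, 130 and 139 genes of all in that order.

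The median at 25 DPI turned on 1 library in each genotype, in edgeR fits without a block. Without the control library of replicate 1 it was -0.28, with 3 genes higher and 7 lower, and without the control library of replicate 2 it was 1.85, with all 10 higher. Without replicate 1 of the libraries labelled iDKO it was 0.70, and without replicate 2 of them -0.35. Each of these fits set 1 replicate number against 2, and all 10 genes were higher in replicate 2 within both 25 DPI groups. The control library of replicate 1 had the lowest summed level of the 10 genes, 2785 CPM, against 5877 to 14890 CPM in the other 7. That library also had the highest sums of 4 of the marker lists of other cells. T cell markers summed to 577 CPM there against 48.5 to 303 CPM elsewhere, melanocyte markers to 363 against 29.5 to 45.2 CPM, erythroid markers to 110 against 0.283 to 15.6 CPM, and sebaceous markers to 1203 against 217 to 640 CPM. Within its pair, all 5 T cell, all 5 melanocyte and all 4 erythroid markers were higher there than in the library labelled iDKO. Of the 3 sebaceous markers, Mgst1 and Elovl6 were higher there too. Scd1 was not, with a log2 ratio of 0.096 for the library labelled iDKO over control. The part of these cells in the low desmosome values was not tested.

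Within pairs, the desmosome genes lay farthest from the centre of all genes in 1 pair. In the pair of replicate 1 at 25 DPI 9 of 10 were higher in the library labelled iDKO, with a median log2 ratio of 1.16, where 49.9% of all genes were higher. In the pair of replicate 2 at 25 DPI 6 of 10 were higher, with a median of 0.05, where 48.7% of all genes were higher. At 52 DPI 1 of 10 was higher in the pair of replicate 1, with a median of -0.16, and 4 of 10 in the pair of replicate 2, with a median of -0.06, where 50.4% and 46.4% of all genes were higher. Dsg2, Dsc1, Dsc3, Jup and Pkp3 were higher in both 25 DPI pairs, as were 25.5% of all genes. Dsg1a, Dsg2, Dsg3, Dsc3, Pkp1 and Pkp3 were lower in both 52 DPI pairs, as were 30.4% of all genes. Dsg2, Dsc3 and Pkp3 did both, as did 8.40% of all genes, which is 3 of the 10.

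**Figure D3:**
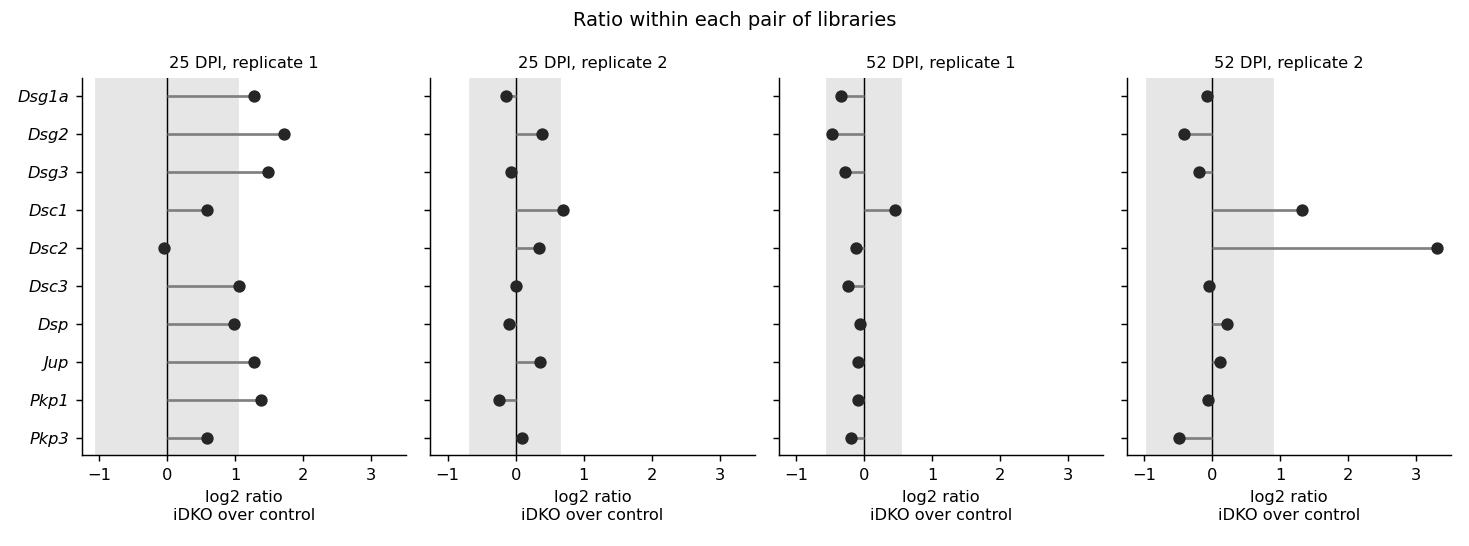
Log2 ratio of the library labelled iDKO over the control library of the same time and replicate number, for each desmosome gene in the 4 pairs, with a grey band of 1 SD on each side of the median of all tested genes. In the pair of replicate 1 at 25 DPI 9 of 10 points lie right of 0, with a median of 1.16, and Dsc2 at 52 DPI in replicate 2 lies farthest out, at 3.30.

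With the replicate number within time as a block, which compares each library labelled iDKO with its pair, edgeR still called 0 of the 10 genes at 25 DPI (0% of all genes), at 52 DPI (0%), for the difference (0%) and across both times (0.00561%). At an unadjusted p under 0.05 that fit found 3 of the 10, Dsg2, Jup and Dsc1, at 25 DPI. It found 1 in each of the others: Dsc1 at 52 DPI, Dsg2 for the difference and Dsc1 across both times. Of all genes 1162, 764, 1116 and 718 were found in that order. At 25 DPI all 10 log2 fold changes were above 0 with this block, with a median of 0.57 beside 0.02 over all genes. DESeq2 with the same block called 0 of the 10 at 25 DPI (0.538% of all genes), at 52 DPI (0.196%), for the difference (0.213%) and across both times (0.392%). Across both times 10 of the 10 log2 fold changes were above 0 in the edgeR fit with this block, Pkp3 at 0.00053, with a median of 0.25 beside 0.01 over all genes. There were 7 above 0 without a block in edgeR and 6 in DESeq2, and 9 in DESeq2 with this block and in edgeR with the number alone as a block. Without both libraries of replicate 1 at 25 DPI, an alternative chosen after seeing the data, that median was -0.11, with 4 genes higher and 6 lower and a smallest adjusted p of 0.358 by edgeR.

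At 25 DPI Pkp3 alone of the 10 lay higher in both libraries labelled iDKO, and 0 lay lower, where 5.39% of all genes were higher and 5.15% lower. At 52 DPI Dsc1 lay higher and Dsc3 lower, where 11.9% of all genes were higher and 10.2% lower. These counts lie near the shares of all genes.

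All but Dsg2 and Dsp in libraries labelled iDKO, and all but Dsc2 and Dsp in control, had a higher fitted level at 52 than at 25 DPI, which is 8 of 10 in each and the same 7 in both, without a call. Of all genes, 42.3% were higher in libraries labelled iDKO and 42.9% in control. In control 4 of the 10, Dsc1, Dsc3, Jup and Pkp3, were higher in both 52 DPI libraries than in both 25 DPI libraries, and 0 were lower in both, where 11.0% of all genes were higher and 9.70% lower. In libraries labelled iDKO Dsc1 and Dsc3 were higher in both at 52 DPI, and 0 were lower, where 11.6% of all genes were higher and 8.75% lower. The log2 fold change of 52 over 25 DPI had a median of 0.77 in control, beside -0.14 over all genes, and of 0.30 in libraries labelled iDKO, beside -0.12, and edgeR called 0 of 10 in both (0% of all genes in each). At an unadjusted p under 0.05 edgeR without a block found 0 of the 10 in both, and 269 and 298 genes of all. With the replicate number as a block it found 0 of the 10 in control and 1, Dsc1, in libraries labelled iDKO, beside 750 and 710 genes of all. The control median was -0.07 without replicate 1 of control at 25 DPI and 2.09 without replicate 2, each in a fit without a block. Time and sex cannot be told apart here.

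The desmosome genes also differed between the replicate numbers. At 25 DPI all 10 were higher in replicate 2 than in replicate 1, in libraries labelled iDKO by a median log2 difference of 1.2 and in control by 2.10, where 51.7% and 51.3% of all genes were higher. At 52 DPI 8 of 10 were higher in replicate 2 of the libraries labelled iDKO, with a median of 0.43, and 5 of 10 in control, with a median of -0.01. Dsp was higher in replicate 2 of all 4 groups, by 1.85 and 2.62 in libraries labelled iDKO at 25 and 52 DPI and by 2.93 and 2.34 in control. Those differences lay at percentiles 87.4, 96.6, 91.7 and 95.8 of all tested genes. Dsg2 had opposite signs at the 2 times, with 1.72 and -0.71 in libraries labelled iDKO and 3.05 and -0.77 in control.

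**Figure D4:**
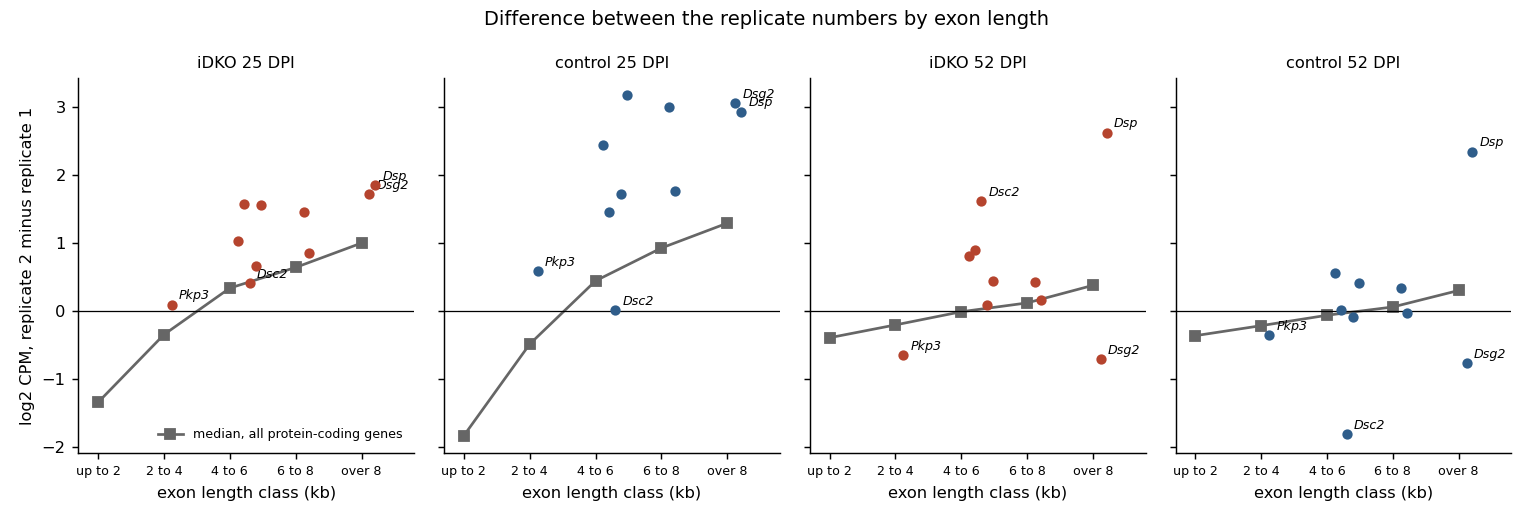
Log2 CPM of replicate 2 minus replicate 1 in each group, for the desmosome genes (coloured points, set side by side within their class) and as the median of all protein-coding genes (grey squares) in 5 classes of exon length. The grey medians climb with length, in control at 25 DPI between -1.83 and 1.29, and Dsp lies above its class in all 4 groups.

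Exon length went with the replicate number. Among protein-coding genes in the shortest of 5 length classes (1941 genes) the median log2 difference of replicate 2 minus replicate 1 was -1.34 in libraries labelled iDKO and -1.83 in control at 25 DPI, and in the longest (2455 genes) it was 1.00 and 1.29. Dsp has 9659 exon bases, Dsg2 8268, and Pkp3, the shortest of the 10 genes, 3616. The pair of replicate 1 at 25 DPI, in which 9 of the 10 lay higher, also had a length trend in libraries labelled iDKO over control, with medians of -0.42 in the shortest class and 0.39 in the longest. In the other 3 pairs the class medians lay between -0.06 and 0.10. The part of length in the desmosome values was not tested.

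Over the 8 libraries, with each gene's log2 CPM centred on its own mean, Dsc3 and Jup were the most alike of the 10 genes, with a root mean square difference of 0.127. The least alike were Dsc2 and Dsp, at 1.45. Against the mean of the other 9 genes, Jup (0.224), Dsg1a (0.239) and Dsc3 (0.268) lay closest and Dsc2 (1.10) and Dsp (1.02) farthest. Of 12335 other tested genes, Max, Fam120a, Spag5, Zfp532 and Mllt1 were most like the mean of the desmosome genes, at 0.0938 to 0.104, beside a median of 0.825 over all. Among those most like Dsp were March6, Tiam1, Ago1 and A930004J17Rik, at 0.139 to 0.194, and most like Dsg2 were Slc1a4, Ano6, Myo1c, Evc2 and Tbc1d1, at 0.200 to 0.237. The 8 libraries share the split by replicate number, so these measures describe it as well.

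Other desmosome genes were called in no comparison by edgeR. Of 11 listed, 10 were tested, and across both times with the block 7 had log2 fold changes above 0 and 3 below, with a median of 0.18. Cdsn, which encodes the corneodesmosin of cornified layers, had the smallest p, with a log2 fold change of 0.99 (SE 0.28, adjusted p = 0.996 by edgeR). Cdsn was at 15.7 and 61.1 CPM in libraries labelled iDKO at 25 DPI, against 12 and 15.4 CPM in control. Its 52 DPI levels were 34.5 and 23.6 CPM in libraries labelled iDKO, against 17.1 and 16.5 CPM in control. Cdsn was thus higher in all 4 pairs, as were Dsc1 and 6.73% of all genes. Its groups did not overlap at either time, though at 25 DPI only 15.7 against 15.4 CPM kept them apart. Of all genes, 5.39% lay higher in both libraries labelled iDKO at 25 DPI and 11.9% at 52 DPI. Evpl, which encodes envoplakin of the plakin family as Dsp does, had 0.55 (SE 0.23), the desmoglein Dsg1b 0.48 (SE 0.33) and Kazn 0.19 (SE 0.25), all with an adjusted p of 0.996 by edgeR.

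Of the 10 keratins that desmosomes anchor, all were tested and 0 called by edgeR. With the block across both times 5 lay above 0 and 5 below, with a median of -0.03. Krt15, a keratin of basal cells, had the smallest p, with a log2 fold change of -0.66 (SE 0.23, adjusted p = 0.996 by edgeR), and was lower in all 4 pairs. Krt2 and Krt10, keratins of differentiated layers, had -0.56 (SE 0.45) and -0.21 (SE 0.23), and Krt17, a keratin of follicles and wounds, had 0.50 (SE 0.51), each with an adjusted p of 0.996 by edgeR. Of 14 transcription factors of epidermis and of mesenchymal transition 13 were tested, and 8 lay above 0 and 5 below, with a median of 0.08. Zeb1, a repressor of epithelial genes, had a log2 fold change of 3.01 (SE 0.29), with an adjusted p of 0.111 by edgeR and 9.23e-18 by DESeq2 with the same block, which called no other gene of these 3 lists across both times. Zeb1 was at 14.4 and 35.3 CPM in libraries labelled iDKO at 25 DPI and at 3.33 and 3.04 CPM in control, and at 52 DPI at 17 and 20.5 CPM in libraries labelled iDKO and at 2.08 and 2.04 CPM in control. Grhl3, a grainyhead-like factor of epidermal differentiation, had 0.54 (SE 0.16), Ovol2 0.43 (SE 0.18) and Ovol1 0.86 (SE 0.39), each with an adjusted p of 0.996 by edgeR.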

How the data were processed

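The authors deposited 1 table of whole-number read counts per library, with a column without regard to strand and 1 column per strand, as the values show. STAR 2.5.2a, Trimmomatic 0.35, DESeq2 1.24.0 and FastQC 0.11.9 are named with GRCm38 in the submitters' processing notes, and per the labels' protocols libraries were made with a SMART-seq v4 low-input kit. The labels name this kit alone, although the strand shares given above differed between the replicate numbers. The libraries of replicate 2 thus kept the strand and those of replicate 1 did not, and the sources used here do not say how their preparation differed. The sources used here give neither settings nor annotation release. Symbols came from GENCODE M21 by identifier for 54809 of 54838 genes. The unstranded counts were fitted with edgeR 4.0.16 (R 4.3.3): filterByExpr, TMM and a quasi-likelihood model of all 8 libraries with 1 mean per group, or with time and genotype across both times. Benjamini-Hochberg adjustment ran over 17839 genes, with calls under 0.05. The SE given with edgeR is the absolute log2 fold change divided by the square root of the test's F value. It is not an output of the test and can be unstable for very small changes. P-values of fits without a block rest on the spread between the 2 samples of a group, which may be technical. Those with the block within time rest on how the differences within pairs vary, with 2 residual degrees of freedom, or 3 across both times. Across both times the spread also holds any difference of the genotype effect between the times. Pair ratios are log2 CPM with a prior count of 2.

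Deviations of same-numbered libraries from their group means correlated at 0.395 to 0.793 between all 6 pairs of groups, so the labels' replicate numbers were taken to pair the libraries. Alternatives were fits with the number as a block, DESeq2 1.42.0, limma-voom (limma 3.58.1), other scalings, no filter, second-strand counts for replicate 2 and leaving out each library. The genes and lists were chosen with earlier results of these data known. Besides the 10 genes, the text names up to 4 genes per list with the smallest p across both times with the block within time, and the 5 genes most like a profile among those whose log2 CPM averaged at least 1. The fits were tested on simulated data. 1 gene named by the likeness rule is not reported here.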

Additional observations from a re-analysis of the deposited data

Results flagged for a closer look

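Dsg2, Dsc3 and Pkp3 were higher in both libraries labelled iDKO than in their paired controls at 25 DPI and lower in both at 52 DPI. They were picked by these signs, so a negative difference between the times follows from the choice. For Dsc3 the log2 ratios in the pairs of replicate 2 were near 0, at 0.0081 at 25 DPI and -0.053 at 52 DPI. The log2 fold change at 52 DPI minus that at 25 DPI was -1.06 for Dsg2, -0.475 for Dsc3 and -0.632 for Pkp3. The test of this difference by edgeR called none of the 3 (adjusted p = 1.00 for each). In the fit blocked by replicate number within time, edgeR's adjusted p was 0.793 for Dsg2, 0.811 for Dsc3 and 0.793 for Pkp3. The sign pattern held in 8.40% of all tested genes.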

How the results depend on the processing

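None of the 10 desmosome genes was called in the 6 comparisons under any alternative run. edgeR called 0 genes of all in each. Without a filter on low counts it called 8 at 25 DPI, 25 at 52 DPI, 16 across both times, 19 for the difference, 62 for time in control and 37 for time in libraries labelled iDKO. DESeq2 called 2, 1 and 8 in the first 3 of these and 13 and 11 for time, and with the replicate block within time 96, 35, 70 and, for the difference, 38. With the block within time edgeR called 1 across both times, and 2 without the 25 DPI pair of replicate 1, which was chosen after seeing the data. The cause of these shifts was not tested.

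The replicate numbers were taken to pair the libraries, and the block within time changed no call of a desmosome gene. Values near 0 turned sign. Jup at 52 DPI was -3.31e-05 with DESeq2 size factors, -3.49e-05 by DESeq2, -0.0067 with the replicate block and -0.0018 by DESeq2 with the block within time. Across both times Dsg1a was -0.0046 with DESeq2 size factors and by DESeq2. Dsg3 was 0.28 by limma-voom, 0.10 with the block, 0.22 with the block within time and 0.21 by DESeq2 with it, and Pkp1 was 0.28, 0.11, 0.23 and 0.22 in the same fits. Pkp3 was 0.012 by limma-voom, 0.00053 with the block within time and 0.0019 with second-strand counts. Without the 25 DPI pair of replicate 1, Dsg1a was -0.18, Dsg2 -0.16 and Dsc3 -0.087. Upper-quartile scaling moved the median of all genes by 0.106 for the difference between times.

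Leaving out each library, in edgeR fits without a block, gave ranges on both sides of 0. The group that lost a library then held 1 replicate number against 2, so these ranges also hold the difference between the numbers. At 25 DPI they were -0.59 to 1.91 for Dsg1a, -0.47 to 2.86 for Dsg2, -0.67 to 2.42 for Dsg3, -0.31 to 1.61 for Dsc1, -0.051 to 0.41 for Dsc2, -0.31 to 1.46 for Dsc3, -1.10 to 2.22 for Dsp, -0.025 to 1.79 for Jup and -0.92 to 2.39 for Pkp1. At 52 DPI they were -0.63 to 0.16 for Dsg1a, -1.65 to 1.79 for Dsp, -0.057 to 0.087 for Jup and -0.30 to 0.16 for Pkp1. For the difference between times they were -3.31 to 0.033 for Dsg2 and -1.60 to 0.17 for Dsc3. Across both times they were -0.35 to 0.57 for Dsg1a, -0.45 to 0.62 for Dsg2, -0.40 to 0.68 for Dsg3, -0.21 to 0.45 for Dsc3, -0.56 to 0.91 for Dsp, -0.00079 to 0.66 for Jup, -0.39 to 0.78 for Pkp1 and -0.18 to 0.18 for Pkp3. Dsc1 stayed above 0 at 52 DPI (0.45 to 1.33) and across both times (0.50 to 1.21) without any 1 library. With 2 libraries per group and a split by replicate number, errors were wide, and Dsc2 at 66 counts in 1 library was the lowest count.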
